A study of Homo sapiens with 4 samples.

Results

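PTPRN and 9 genes of the dense-core vesicle were examined in U87 glioma cells, with and without knockdown of PTPRN. The 10 genes were chosen by name and not by a threshold on their values, though with earlier results of these data known. All were found among 19314 genes listed for the series. They comprise PTPRN and its paralog PTPRN2, the granins CHGA, CHGB, SCG2, SCG3 and SCG5, and the precursor processing enzymes PCSK1, PCSK2 and CPE. In all, 9 of the 10 genes had a value above 0 in at least 1 library, against 16595 of the whole list, and PCSK2 was listed without a value.

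Dense-core vesicles are the storage organelles of the regulated secretory pathway, in which neurons and endocrine cells keep peptide hormones and neuropeptides until a rise in calcium triggers their release. Granins are packed with the peptide precursors at the trans-Golgi network, prohormone convertases cut the precursors at pairs of basic residues, and carboxypeptidase E removes these residues from the ends. PTPRN, also named IA-2 or ICA512, spans the vesicle membrane and carries a receptor-type tyrosine phosphatase fold without catalytic activity, and is known as an autoantigen of type 1 diabetes. U87 is an established human glioma cell line and not an endocrine one.

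RNA was sequenced from U87 cells in 4 libraries, 2 with a short hairpin against PTPRN (genotype PTPRN knockdown) and 2 with a scrambled control hairpin, shScr (genotype SCR). The titles of the former give the name PTP2, which is read here as the hairpin shPTPRN-2 from the group names the study uses, and the target site below rests on that reading. Hairpins were carried by the pLKO.1 vector in both groups, so that the comparison concerns 1 targeting sequence in 1 cell line, and other hairpins, overexpression and time after transfection were not analysed here. The labels give the cell line as U87, whereas their growth protocol names the endothelial line hCMEC/D3, and nothing states that the libraries of a group came from separate cultures. P-values therefore measure the spread between these libraries, which may be technical. Values are FPKM, a density of reads scaled by transcript length and by library size. Fold changes were taken on the log2(FPKM + 1) scale and tested with limma, and p-values were adjusted over all 16595 genes. The thresholds used were 2, a fold change of at least 2 with an adjusted p of at most 0.001 (the strict threshold) and an adjusted p of at most 0.05 alone (the looser threshold).

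Depth was close to equal between groups. The estimated depth was 17100000 and 17300000 reads with shPTPRN-2 and 18200000 and 17300000 reads with shScr, and 11080 to 11252 genes reached an FPKM of 1. Of the glioma and astroglial markers, 10 of 11 had a value, with a summed FPKM of 4896 to 5101 with shPTPRN-2 and 2102 to 2180 with shScr, most of it from VIM. Of the endothelial markers, 10 of 10 had a value and their summed FPKM was 4.03 to 4.57 and 4.72 to 4.77, while CDH5, the cadherin of endothelial junctions, lay between 0.01 and 0.03 in all 4 libraries. Of the neuron and neuroendocrine markers, 11 of 14 had a value, RBFOX3 lay between 0.02 and 0.04, and INSM1, STMN2 and ELAVL4 were listed without one. GFAP, the filament protein of astrocytes, was at 0.22 and 0.11 with shPTPRN-2 and at 0.55 and 0.45 with shScr. In bulk samples, fewer cells of a type and less RNA per cell cannot be told apart.

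The hairpin and its target are shown first, because the knockdown rests on this match and because PTPRN2 is the closest relative of PTPRN. The 21-base target of shPTPRN-2 lies in exon 6 of PTPRN (NCBI Gene ID 5798) on the minus strand of chromosome 2, at chr2:219302373-219302393 of GRCh38. It is given 5′ to 3′, followed by the stretch of the PTPRN2 transcript that resembles it most, at chr7:158192411-158192431 in exon 5 on the minus strand, with the mismatched bases in capitals.
shPTPRN-2 target in PTPRN: aactgcctccaagggcatatt
most similar stretch of PTPRN2: aacGCcctccGaCgCcaCCtG
The exact target was found in 4 of 19 annotated PTPRN transcripts, among them 3 of the 9 coding ones, and in all 3 RefSeq transcripts listed for PTPRN in the table of values. PTPRN2 differed from it at 8 of 21 bases. Among the remaining vesicle genes the fewest mismatches were 7 for SCG3 and PCSK2, 8 for PCSK1 and CPE, and 9 for CHGA, CHGB, SCG2 and SCG5. Binding of the hairpin to these stretches was not measured.

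PTPRN had the highest level of the 10 genes in the control cells and fell with shPTPRN-2. The gene spans chr2:219289623-219309573 of GRCh38 on the minus strand. Its FPKM was 12.1 and 11.7 in the shPTPRN-2 libraries and 84.8 and 85.0 in the shScr libraries, from about 783 and 766 reads against about 5832 and 5564 reads. Both knockdown libraries lay far below both control libraries. The means of 11.9 ± 0.290 in knockdown and 84.9 ± 0.127 in control cells (SD, n = 2 each) differed 7.15-fold, so that 14.0% of the control level remained. The log2 fold change was -2.74 (SE 0.0326, adjusted p = 1.48e-04 by limma). Among all genes by abundance, PTPRN stood at place 826 and 806 in the control libraries and at 5539 and 5670 in the knockdown libraries. An annotated antisense gene, AC114803.1, shares 216 exonic bases with PTPRN. Whether reads were counted by strand is not given in the sources used here.

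PTPRN2, or phogrin, is the paralog that sits in the same vesicle membrane. It was at 10.6 and 10.2 FPKM with shPTPRN-2 and at 15.5 and 15.1 with shScr, so that the groups did not overlap and both knockdown libraries were lower. The means of 10.4 ± 0.276 and 15.3 ± 0.325 (SD, n = 2 each) left 67.9% of the control level. PTPRN2 thus fell, with a log2 fold change of -0.52 (SE 0.0365, adjusted p = 0.00126 by limma), past the looser threshold but not the strict one. The ratio of PTPRN to PTPRN2 was 5.46 and 5.64 in the control libraries and 1.14 and 1.15 in the knockdown libraries, where the paralogs lay closer together.

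SCG5, also called 7B2, is a small secreted chaperone of the convertase PCSK2, and had the largest rise of the 10 genes. Its FPKM was 81.2 and 77.9 with shPTPRN-2 and 16.8 and 16.5 with shScr. Both knockdown libraries lay above both controls. The means were 79.5 ± 2.34 and 16.6 ± 0.226 (SD, n = 2 each), which is 4.79-fold higher with shPTPRN-2. On the log2(FPKM + 1) scale the change was 2.19 (SE 0.0366, adjusted p = 1.72e-04 by limma). SCG5 moved from place 4299 and 4366 by abundance in the control libraries to 941 and 967 in the knockdown libraries. Its client PCSK2 was listed without a value in every library. The table of values placed SCG5 on an alternate sequence of chromosome 15 (RefSeq gives chr15:32641710-32697092 of GRCh38), and the antisense gene AC123768.1 shares 11 of its exonic bases.

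SCG2, secretogranin II, is the precursor of secretoneurin and lies on chromosome 2, at chr2:223596940-223602499. It was low in U87 cells and lower with the hairpin. Its FPKM was 0.33 and 0.22 with shPTPRN-2 and 0.83 and 0.95 with shScr, from about 14.5 and 9.8 against 38.8 and 42.3 reads. The groups did not overlap. The log2 fold change was -0.57 (SE 0.0632, adjusted p = 0.00375 by limma) on the log2(FPKM + 1) scale, which compresses changes at such levels, and the ratio of the mean FPKM was 3.24 in favor of shScr. Without the first shScr library the adjusted p was 0.0533, and without the second it was 0.0651.

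The remaining granins were at or near the limit of detection. SCG3, which binds CHGA and cholesterol-rich membrane, was at 0.30 and 0.24 FPKM with shPTPRN-2 and at 0.08 and 0.29 with shScr. Its groups overlapped, and the log2 fold change was 0.11 (SE 0.101, adjusted p = 0.448 by limma). CHGB, chromogranin B, was at 0.04 and 0.11 against 0.02 and 0.11, about 1 to 5 reads per library, and its log2 change was 0.01 (SE 0.0630, adjusted p = 0.869). CHGA, chromogranin A, the granin most used as a marker of neuroendocrine cells, was at 0.03 in the first shPTPRN-2 library, about 1 read, and at 0 in the other 3. A difference in CHGA, CHGB or SCG3 was not detectable at this depth. The deposited values also placed CHGA on an alternate sequence of chromosome 14, and whether this lowered its reads was not tested.

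The processing enzymes moved in opposite directions. CPE, carboxypeptidase E, was at 8.73 and 8.40 FPKM with shPTPRN-2 and at 23.1 and 22.9 with shScr. Both knockdown libraries were below both controls, with means of 8.56 ± 0.233 and 23.0 ± 0.0990 (SD, n = 2 each). CPE fell 2.69-fold, to 37.2% of control, and its log2 fold change was -1.33 (SE 0.0335, adjusted p = 2.76e-04 by limma). PCSK1, the convertase PC1/3, rose from 0.41 and 0.47 FPKM with shScr to 1.64 and 1.82 with shPTPRN-2, or from about 38.5 and 42.0 to 145 and 163 reads. The ratio of its means was 3.93. On the log2(FPKM + 1) scale the change was 0.92 (SE 0.0498, adjusted p = 7.39e-04 by limma), just under the fold of 2 that the strict threshold asks for, and with a pseudocount of 0.1 in place of 1 it was 1.76. The ratio of CPE to PCSK1 was 56.3 and 48.8 in the control libraries and 5.32 and 4.62 in the knockdown libraries.

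**Figure D1:**
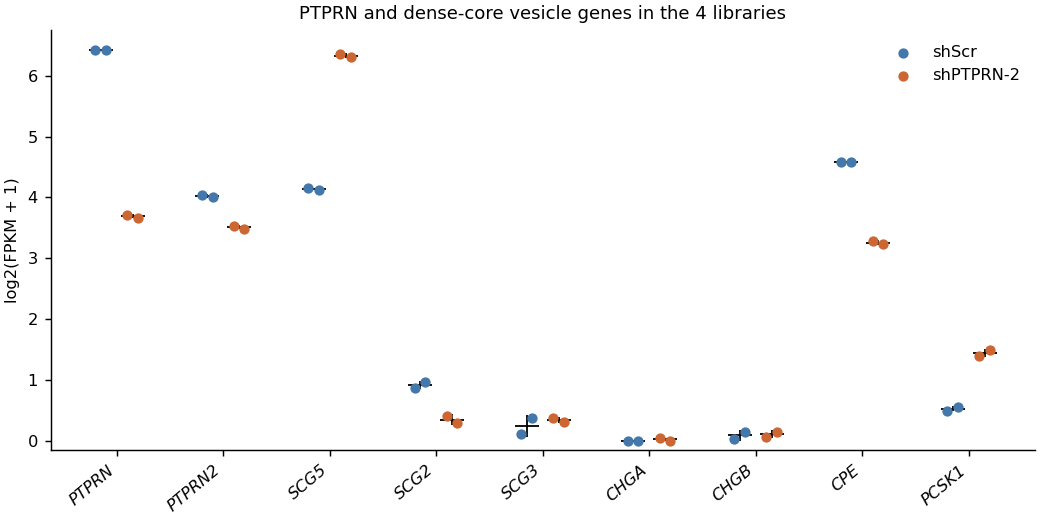
Level of each gene in the 4 libraries as log2(FPKM + 1), with shScr in blue and shPTPRN-2 in orange; horizontal lines are group means and vertical lines SDs. PTPRN was highest with shScr and SCG5 with shPTPRN-2, while CHGA and CHGB stayed near 0.

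Taken as a set of 9 genes with a value, 3 passed the strict threshold, of which PTPRN and CPE were lower and SCG5 was higher. Over all genes tested the strict threshold was passed by 6.69%, with 4.06% lower and 2.63% higher. At the looser threshold 6 of 9 genes passed, 4 lower (PTPRN, CPE, SCG2 and PTPRN2) and 2 higher (SCG5 and PCSK1). At that threshold 57.9% of all genes passed, 27.1% lower and 30.8% higher. The same 6 genes were those whose groups did not overlap, against 75.6% of all genes. The median log2 fold change of the 9 genes was 0.01 and that of all genes was also 0.01. PTPRN, the target of the hairpin, is counted among them. The strict count of 3 became 0 when any 1 of the 4 libraries was left out, as it did over all genes, and the changes themselves then lay within -2.76 to -2.71 for PTPRN, 2.16 to 2.22 for SCG5 and -1.35 to -1.30 for CPE.

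**Figure D2:**
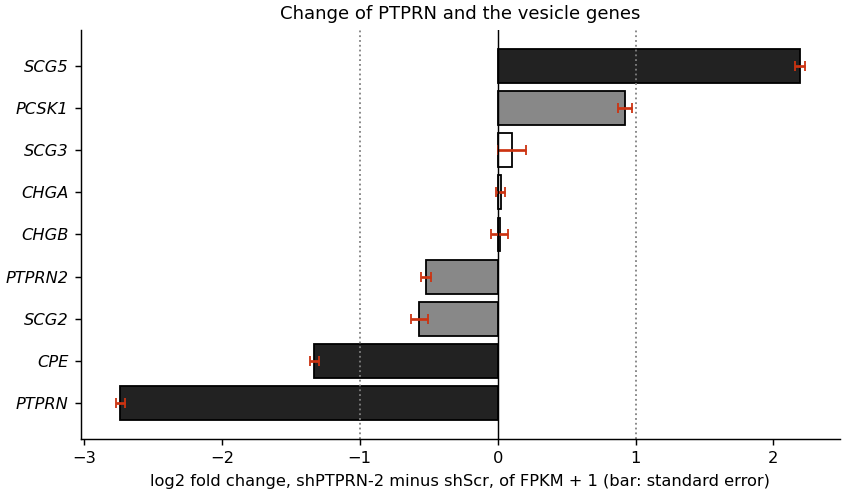
Log2 fold change of log2(FPKM + 1), shPTPRN-2 minus shScr, with its standard error in red. Black bars passed the strict threshold, grey bars the looser one and white bars neither; dotted lines mark a fold of 2.

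The composition of the set changed with its members. The summed FPKM of the 9 genes was 115 and 110.5 with shPTPRN-2 and 142 and 141 with shScr. This sum includes PTPRN, the target of the hairpin, so the lower sum and the shares below follow in part from the knockdown itself. Without PTPRN the sum would be higher with shPTPRN-2 than with shScr, through the rise of SCG5. PTPRN made up 59.9% and 60.2% of the sum in the control libraries and 10.5% and 10.6% in the knockdown libraries. SCG5 made up 11.9% and 11.6% and then 70.7% and 70.5%. In control cells the order of levels was PTPRN, CPE, SCG5, PTPRN2, SCG2, PCSK1, SCG3, CHGB and CHGA, and the ranges of SCG3 and CHGB overlapped. With shPTPRN-2 it was SCG5, PTPRN, PTPRN2, CPE, PCSK1, SCG2, SCG3, CHGB and CHGA, and the ranges of SCG2 and SCG3 overlapped. SCG5 and CPE lay close together in the control, with a ratio of SCG5 to CPE of 0.726 and 0.717, and far apart after knockdown, with a ratio of 9.30 and 9.27.

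The genes around PTPRN on chromosome 2 were compared with it, since the hairpin acts on the transcript and not on the locus. Of 10 genes within 100 kb, 9 had a value, and 0 of them passed the strict threshold, which 6.69% of all genes passed. At the looser one 5 of the 9 were lower and 0 higher, where 57.9% of all genes passed and 27.1% were lower. The largest fall was that of ABCB6, a porphyrin transporter, from 8.56 and 7.50 to 4.13 and 4.01 FPKM (log2 fold change -0.83, adjusted p = 0.00184 by limma). ANKZF1 (-0.55), ATG9A (-0.40), DNPEP (-0.26) and DNAJB2 (-0.25) also fell. DNAJB2, a co-chaperone gene 2723 bases from PTPRN, had an adjusted p of 0.0251 by limma, a call that held in 6 of 11 alternative fits and was lost with any 1 library left out, with an adjusted p of up to 0.172. ZFAND2B, GLB1L, STK16 and TUBA4A did not pass, with log2 fold changes of 0.11, 0.05, -0.01 and -0.03. RESP18, a vesicle protein related to the luminal domain of PTPRN, lies 17836 bases away and was listed without a value. Within 100 kb of PTPRN2, NCAPG2, a condensin subunit, rose from 29.2 and 29.9 to 47.4 and 48.8 FPKM (log2 fold change 0.68, adjusted p = 6.45e-04 by limma).

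**Figure D3:**
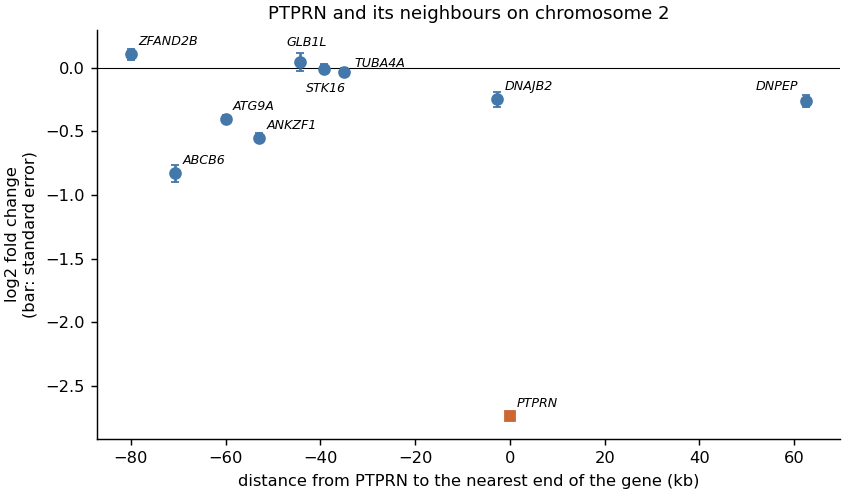
Log2 fold change (shPTPRN-2 minus shScr, with standard error) of PTPRN and of the 9 genes with a value within 100 kb, by distance in kb to the nearest end of each gene. PTPRN stands at -2.74 and the neighbours lie between -0.83 and 0.11.

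The genes whose levels over the 4 libraries lay nearest to those of PTPRN, by Euclidean distance in log2(FPKM + 1), were TXNIP (0.515), FASN (0.587), COL5A1 (0.602), SLC2A1 (0.602) and SRPX2 (0.695). TXNIP, which binds thioredoxin, was at 9.23 and 9.52 FPKM with shPTPRN-2 and at 73.5 and 76.1 with shScr. FASN, the fatty acid synthase, was at 16.0 and 16.3 against 86.1 and 82.5, and the glucose transporter SLC2A1 was at 11.8 and 12.2 against 65.5 and 61.0. All 5 thus combined a high control level with a fall of similar size, between -3.13 and -2.30 on the log2 scale. With 2 libraries a group, this likeness rests on the level and on 1 difference.

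Among other vesicle cargo, VGF rose most and BDNF fell. VGF, a granin-like precursor of neuropeptides, was at 16.0 and 16.1 FPKM with shPTPRN-2 and at 0.69 and 0.86 with shScr. The ratio of means was 20.7 and the log2 change 3.27 (SE 0.0580, adjusted p = 1.88e-04 by limma). NUCB2, the precursor of nesfatin, rose by 0.29 on the log2 scale, from 36.3 and 36.6 to 44.9 and 44.7 FPKM. These were the 2 of 4 further granin-like genes with a value, while PCSK1N and RESP18 were listed without one. Their median of 1.78, against 0.01 over all genes, is the midpoint of VGF and NUCB2 and describes neither.

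Of 30 neuropeptide and hormone genes, 18 had a value, 13 of them at a mean FPKM under 1. BDNF, a neurotrophin released from dense-core vesicles, was the 1 that passed the strict threshold, 5.56% of the list against 6.69% of all genes. It was at 8.94 and 9.25 FPKM with shPTPRN-2 and at 20.9 and 21.1 with shScr (log2 fold change -1.12, adjusted p = 3.31e-04 by limma). At the looser threshold 6 genes were lower, among them ADM (-0.70), the precursor of adrenomedullin, and NMB (-0.32, adjusted p = 0.0481), the precursor of neuromedin B, and 2 were higher, among them NMU (0.77). These 8 of 18 genes are 44.4%, against 57.9% of all genes. The call of NMB held in 7 of 11 alternative fits, and it was lost with either shPTPRN-2 library left out, with an adjusted p of up to 0.247. NPY, SST, POMC and INS were among the 12 genes listed without a value. The median of the list was -0.07, but -0.32 among genes of at least 1 FPKM in 2 or more libraries and -0.36 with a pseudocount of 0.1.

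Of 14 further precursor processing enzymes, 13 had a value and 0 passed the strict threshold, which 6.69% of all genes passed. At the looser one 5 were lower and 2 higher, 53.8% of the list against 57.9% of all genes. The list median was -0.06, but -0.41 with the filter on low values and -0.46 with a pseudocount of 0.1. PAM, which amidates the ends of many neuropeptides, fell from 99.1 and 99.6 to 62.0 and 62.3 FPKM (log2 fold change -0.67, adjusted p = 4.98e-04 by limma). CTSL, a lysosomal protease that is also found in secretory vesicles, rose from 141 and 140.3 to 216 and 213 FPKM (0.61, adjusted p = 5.95e-04 by limma). FURIN, the convertase of the constitutive pathway, was at 34.3 and 33.9 FPKM with shPTPRN-2 and at 34.4 and 33.9 with shScr (adjusted p = 0.940 by limma).

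Of the genes that shape and mature the vesicle, all 21 had a value, with 0 past the strict threshold, against 6.69% of all genes. At the looser one 4 were higher and 5 lower (42.9% of the list against 57.9% of all genes), and the median was -0.03. RAB2A, a GTPase of vesicle maturation, rose by 0.13 (adjusted p = 0.0360 by limma), a call that held in 4 of 11 alternative fits. For ARFIP2, a curvature-sensing protein of the Golgi, the value was 0.10 (adjusted p = 0.0558).

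Of 42 docking and exocytosis genes, 38 had a value, and 4 of them, all lower, passed the strict threshold. That is 10.5%, against 6.69% of all genes and 9.57% of those with a mean FPKM of at least 1. At the looser threshold 11 were higher and 11 lower, 57.9% of the list as of all genes, with a median of -0.00. CADPS, or CAPS, primes dense-core vesicles for release, and it was at 1.34 and 1.35 FPKM with shPTPRN-2 and at 8.27 and 8.41 with shScr. Its log2 fold change was -1.99 (adjusted p = 1.55e-04 by limma), and the plain ratio of means was 6.20. SYTL4, or granuphilin, which docks insulin granules, was at 4.12 and 4.18 against 13.5 and 13.2 FPKM (-1.47, adjusted p = 2.39e-04). The related effector SYTL2 was at 7.53 and 7.77 against 17.0 and 17.6 (-1.08, adjusted p = 3.72e-04). SNAP25, a SNARE of regulated exocytosis, was at 3.63 and 3.98 against 10.6 and 9.79 (-1.22, adjusted p = 6.59e-04). The groups of these 4 genes did not overlap, which their selection by the strict threshold makes nearly certain. The same was so for 29 of the 38 genes and for 75.6% of all genes. VAMP3, a SNARE of recycling endosomes, rose by 0.19, though not past 0.05 under quantile normalization, and NAPA, which helps to take SNARE complexes apart, was at 0.08 on the log2 scale (adjusted p = 0.243), which turned to -0.02 under quantile normalization. STX1A, SNAP23 and RAB3B were among the 11 higher genes.

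**Figure D4:**
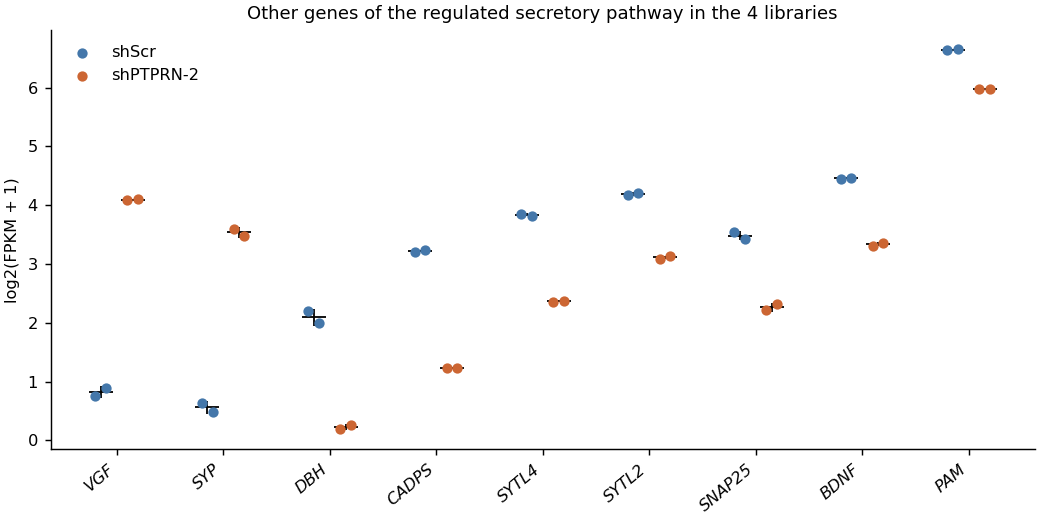
Level of 9 further genes of the regulated secretory pathway in the 4 libraries as log2(FPKM + 1), with shScr in blue and shPTPRN-2 in orange; lines are means and SDs. VGF and SYP were higher with shPTPRN-2 and the other 7 lower.

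Among vesicle membrane proteins and transporters, SYP rose and DBH fell. SYP, synaptophysin, an abundant protein of small synaptic-like vesicles, was at 11.1 and 10.1 FPKM with shPTPRN-2 and at 0.56 and 0.40 with shScr (log2 fold change 2.97, adjusted p = 2.99e-04 by limma). DBH, the vesicular enzyme that makes noradrenaline, was at 0.14 and 0.20 against 3.58 and 2.98 FPKM (-1.87, adjusted p = 5.51e-04). Ratios of the means were 22.1 for SYP and 19.3 for DBH. In this list 11 of 13 genes had a value, 4 were higher and 3 lower at the looser threshold (63.6% against 57.9% of all genes), and the median was 0.00. The accessory subunits of the vesicular proton pump were split, with ATP6AP2 at 0.28 and ATP6AP1 at -0.45. The monoamine transporter SLC18A2 was among the 4 higher genes and SLC18A1 was listed without a value.

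**Figure D5:**
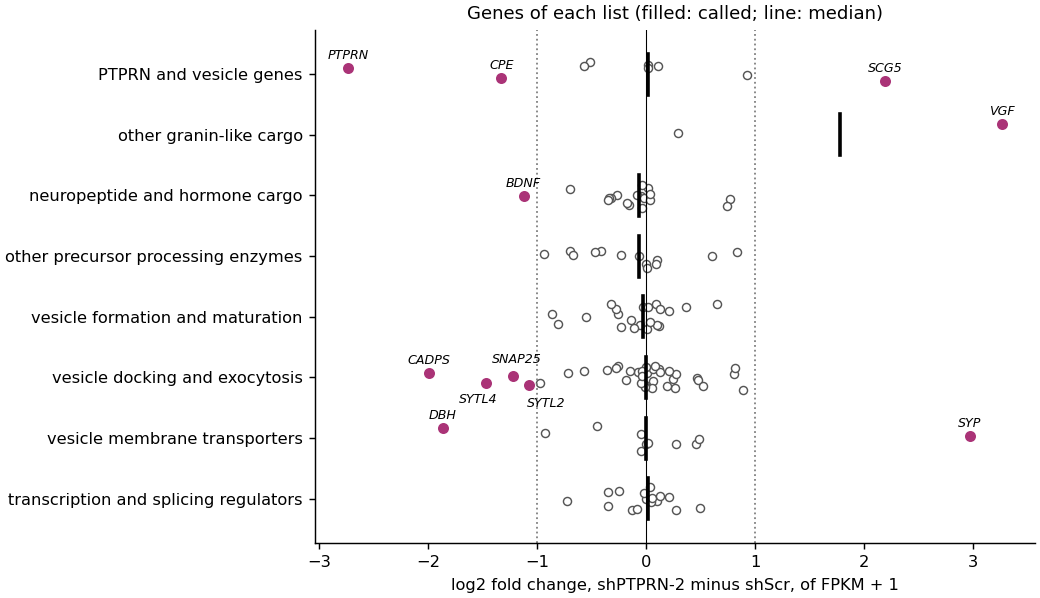
Log2 fold change (shPTPRN-2 minus shScr, FPKM + 1) of every gene with a value in 8 lists; filled points passed the strict threshold, black lines are list medians and dotted lines mark a fold of 2. On this scale list medians lay between -0.07 and 0.02 apart from the 2 granin-like genes, while single genes such as VGF, SYP, SCG5, CADPS and DBH lay far out.

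Regulators of such genes and protein partners of PTPRN had no strict call, where 6.69% of all genes had one. With lists this short, 0 calls is close to that share. Of 18 transcription and splicing regulators, 16 had a value, 0 passed the strict threshold, and 3 were higher and 5 lower at the looser one (50.0% against 57.9% of all genes), with a median of 0.02. ATF4, a stress-responsive factor, fell by 0.72 on the log2 scale (adjusted p = 5.21e-04 by limma). PTBP1, a repressor of neuronal exons, rose by 0.49. REST, the repressor of neuronal and neuroendocrine genes, went from 5.77 and 5.85 to 5.31 and 5.16 FPKM (log2 fold change -0.13, adjusted p = 0.0326). Of the 7 partners all had a value and 0 passed the strict threshold. At the looser one 1 was higher and 3 lower (57.1% against 57.9% of all genes). The median was 0.01 and became -0.21 with the filter on low values. The chaperone HSP90AA1 was at 540.1 and 549 FPKM against 444 and 463, a log2 difference of 0.26 (adjusted p = 0.00670 by limma) that turned to -0.03 under quantile normalization. STAT3 was at -0.27, STAT5B, of the STAT5 proteins that bind the PTPRN tail in islet cells, at -0.35 (adjusted p = 0.00170), and STAT5A at 0.13 (adjusted p = 0.0972).

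Marker genes that moved beside the vesicle genes were compared in the same fit, and their part in the results above was not tested. Of the neuron and neuroendocrine markers with a value, 1 was higher and 1 lower at the strict threshold, SYP and SNAP25, which the vesicle lists hold too. These strict calls were 18.2% of the list, against 6.69% of all genes and 9.57% of those with a mean FPKM of at least 1. At the looser threshold 2 were higher and 2 lower (36.4% against 57.9% of all genes), with a median of 0.01. Their summed FPKM was 726 to 756 with shPTPRN-2 and 628 to 638 with shScr, most of it UCHL1, whose log2 fold change of 0.28 turned to -0.04 under quantile normalization. ENO2 was at -0.38. Of the glioma and astroglial markers with a value, 2 were higher (VIM, 1.25, and CD44, 1.05) and 2 lower (NES, -1.78, and SOX9, -1.58) at the strict threshold. That is 4 of 10 genes, against 6.69% of all genes and 9.57% of those with a mean FPKM of at least 1. At the looser threshold 5 were higher and 3 lower (8 of 10 genes, against 57.9% of all genes), and the median was 0.19. Of the endothelial markers 0 passed the strict threshold. At the looser one 3 were higher and 2 lower (50.0% against 57.9% of all genes), with a median of 0.02. VWF was at 0.06 and 0.05 FPKM with shPTPRN-2 and at 0.98 and 0.93 with shScr, and PECAM1 at 1.21 and 1.26 against 2.39 and 2.50.

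Promoters were read for a cAMP response element (CRE), since cAMP signaling is a classical inducer of granin and convertase genes. A RefSeq promoter, 250 bases before to 50 after the transcription start, was matched for 7 of the 10 genes, and not for PTPRN2, CHGB and SCG2. The full element TGACGTCA, searched on both strands, was found in CHGA and PCSK1, and also in VGF. It occurs in 649 of 35116 promoters, or 1.85%, and in 446 of 13258 tested genes with a matched promoter, or 3.4%, counted as here over any promoter of a gene. The shorter core TGACG, which the full element contains, was found in all 7 matched genes, in 24.5% of all promoters and in 37.3% of those tested genes. Other genes past the strict threshold were searched beside VGF. The full element was not found in SYP, which rose, nor in DBH and SYTL4, which fell. For CADPS and SNAP25 no motif of any kind was recorded. Only matches were recorded, so a promoter without the element cannot be told here from a promoter that was not available. The 3 windows are shown because PCSK1 and VGF rose while CHGA was near 0. They are given 5′ to 3′ on the strand of the gene (GRCh38.p14), with the element in capitals.
CHGA, chr14:92923056-92923143, plus strand: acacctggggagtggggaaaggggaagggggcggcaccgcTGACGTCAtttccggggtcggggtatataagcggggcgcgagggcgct
PCSK1, chr5:96433278-96433365, minus strand: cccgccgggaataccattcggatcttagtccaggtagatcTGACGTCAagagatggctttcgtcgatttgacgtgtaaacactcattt
VGF, chr7:101165601-101165688, minus strand: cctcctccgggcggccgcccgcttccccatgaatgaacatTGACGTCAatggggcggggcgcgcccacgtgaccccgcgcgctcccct
Counted from the start site as 0, the element begins at -54 in CHGA, at -77 in PCSK1 and at -79 in VGF. GC made up 68.2%, 47.7% and 72.7% of the windows. Of 446 tested genes with the element, 13 were higher and 13 lower at the strict threshold, together 5.83%, against 6.43% of the 13258 tested genes with a matched promoter. Their median log2 fold change was 0.05 against 0.01. The element is a match of letters, and binding to it was not measured.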

How the data were processed

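Single-end reads of total RNA had been mapped with HISAT2 2.1.0 to hg19, per the submitters' processing notes. The positions given in the tables nevertheless fit GRCh38, with 92.9% of gene starts within 10000 bases of it. The counting program and annotation are not given in the sources used here. The authors deposited FPKM values per gene and library in 2 tables, in which 0 of 66380 values differed. The tables also hold the authors' own comparisons (DEGseq and PossionDis: log2 fold changes with p- or q-values and FDR), which were not used. No FPKM column belonged to an unlisted sample (0 such columns). Of the 482 genes placed on alternate sequences, 2 are CHGA and SCG5.

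Depth was estimated from the FPKM of 1 read in short genes with 1 transcript (under 1500 bases). Between 85.9% and 92.3% of low values lay within 0.2 reads of a whole number, so read numbers are approximate.

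All genes above 0 FPKM in at least 1 library entered a limma 3.58.1 model (R 4.3.3, lmFit and eBayes defaults) of log2(FPKM + 1) on group alone, with Benjamini-Hochberg adjustment and 3.72 degrees of freedom. An exact permutation test of 2 against 2 libraries cannot go below p = 0.333 and was not used. A check on simulated data asked only for the sign and median size of planted changes, and its false calls are not reported here.

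Named were all 10 genes, from each list at most 4 genes past the strict threshold and 2 not past it with the highest mean FPKM, genes within 100 kb of PTPRN or PTPRN2, the 5 nearest genes in level, defining markers, and HSP90AA1, STAT5A and STAT5B. FURIN, NMU, STX1A, SNAP23, RAB3B, REST, SLC18A2 and genes listed without a value were named after their values were seen. Some genes of the lists are not reported here. The 10 genes were picked by name and the lists by function, both with earlier results of these data known. Hairpin targets came from the study's oligonucleotide list, transcripts from GENCODE 29 and promoters from RefSeq. Alternatives were another pseudocount, a filter on low values, other scalings, eBayes with a trend, a replicate block and leaving out each library.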

Additional observations from a re-analysis of the deposited data

How the results depend on the processing

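The changes of PTPRN, PTPRN2, SCG5, CPE and PCSK1 kept their direction and an adjusted p under 0.05 (limma) in all 11 alternatives, with PTPRN between -2.83 and -2.71 and SCG5 between 2.11 and 2.25. The strict threshold was less stable. With a pseudocount of 0.1, and with the replicate block, 0 genes passed it over the whole series, so that the strict counts of the vesicle genes, the granin-like, neuropeptide, docking and transporter lists and the neuron and glioma markers were 0 too; at an adjusted p of 0.05 these fits called 9169 and 9139 genes. With any 1 library left out all these strict counts were 0 to 0, and 6525 to 6589 genes passed 0.05. There 1 group has 1 library, assumed to vary like the other. With a pseudocount of 0.1 and a trend in eBayes, added after seeing the data, 1172 genes and 3 of the vesicle genes passed, and 1 endothelial marker. With quantile normalization PCSK1 also passed, which made 4 vesicle genes. Same-numbered libraries did not deviate together (correlation 0.042), so the replicate number was not taken as a pairing.

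Left out 1 at a time, SCG2 lay between -0.631 and -0.506, CHGB between -0.047 and 0.075 and SCG3 between -0.023 and 0.233. Counts at 0.05 were then 5 to 6 for neuropeptides, 5 to 7 for vesicle formation, 4 to 6 for regulators, 1 to 3 for PTPRN partners, 5 to 6 for glioma and 3 to 5 for endothelial markers. A filter at an FPKM of 1 left 5 neuropeptide genes and 1 endothelial marker past 0.05. List medians moved with this filter to -0.322 for neuropeptides, -0.41 for processing enzymes, -0.209 for PTPRN partners, 0.149 for transporters, 0.74 for glioma and -0.624 for endothelial markers. Under quantile normalization NAPA (-0.022), HSP90AA1 (-0.026) and UCHL1 (-0.044) reversed. Without 1 library GLB1L lay between -0.024 and 0.115, STK16 between -0.034 and 0.021, RBFOX3 between -0.007 and 0.021 and CDH5 between -0.028 and 0.0. The cause was not tested. Depth limits CHGA, CHGB and SCG3, which rest on fewer than 20 reads per library.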
